A study of Mus musculus with 6 samples.

Results

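The genes described here are the classical and non-classical H-2 genes of the mouse major histocompatibility complex (MHC) and the genes whose products supply, load and regulate them. They were chosen by symbol: every gene whose name starts with H2-, and 18 more of the antigen presentation pathway (B2m, Tap1, Tap2, Tapbp, Tapbpl, Psmb8, Psmb9, Psmb10, Psme1, Psme2, Erap1, Cd74, Ciita, Nlrc5, Rfx5, Rfxap, Cd1d1 and Mr1). The choice gave 65 probes for 52 genes, out of 27234 named probes for 20659 genes, and 44 of the 52 could be tested. The study profiled cultured CD63+ cells from adult mouse liver on 6 one-colour arrays, 3 from mice with DDC injury and 3 from mice with no injury. DDC is a hepatotoxin used to injure the bile ducts of mice. All cultures were grown in a medium that contained serum, dexamethasone, insulin and the growth factors HGF and EGF. Some cultures also received VEGF and bFGF, but the labels do not tie that treatment to sample titles, and it could not be assigned to arrays. The labels give no strain or genotype, and the series is described as 6 cell lines, so each array may stand for 1 line.

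MHC class I molecules carry peptides of cytosolic proteins to the cell surface. The proteasome cuts these peptides, the TAP transporter (Tap1 with Tap2) moves them into the endoplasmic reticulum, the aminopeptidase Erap1 trims them, and tapasin (Tapbp) helps to load them onto a heavy chain paired with beta-2 microglobulin (B2m). Class II molecules carry peptides from the endocytic route, are guided by the invariant chain (Cd74) and are found mainly on professional antigen presenting cells, while class I is found on nearly all nucleated cells. Interferon-gamma induces most genes of both routes, class I through the regulator Nlrc5 and class II through Ciita.

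Levels are on a log2 scale on which 0 is the 75th percentile of the processed signal of that array. On the same scale a difference is the DDC injury mean minus the no-injury mean, and its error is the fit's standard error. Over 137 probes with 10 spots per array, no-injury replicates 1 and 3 did not differ detectably beyond the noise between repeated spots. Their spread was 1.05 times that noise (chi-square 150.34 on 136 degrees of freedom, p = 0.189). They were counted as 1 sample, so 3 DDC injury samples were compared with 2 no-injury samples. The check did not cover other probes and cannot show that the 2 arrays agree there. Among dim genes, replicates 1 and 3 stood at -7.22 and -5.72 for H2-Ob and at -5.57 and -4.27 for H2-Q8. For H2-M11 they were closer, at -4.35 and -4.45. All adjusted p-values are from limma after Benjamini-Hochberg adjustment over 15622 genes, with a threshold of 0.05. The 75th percentile of the signal was 1441 to 2271 on the DDC injury arrays and 2062 to 2203 on the no-injury arrays. Between 65.0% and 74.8% of the 43020 spots of an array were well above background, and none was saturated. Cd63, the gene used to sort the cells, differed by -0.11 ± 0.17 (adjusted p = 0.660 by limma). No scan out of 3 held both groups, so scan and group cannot be told apart.

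Of the 44 genes tested, 2 were higher and 9 were lower in DDC injury, and 33 did not pass. The higher genes were H2-M1 and H2-M9. The lower genes were the class I heavy chains H2-D1, H2-Q6, H2-Q7 and H2-Q10, the transporter subunit Tap2, the immunoproteasome subunit Psmb9, the trimming enzyme Erap1, the lipid-presenting Cd1d1 and H2-Ke6. The whole array moved broadly, with 17.7% of all genes tested higher and 15.8% lower. Of the 44 genes 4.55% were higher, below that background, and 20.5% were lower, near it. The median difference over the 44 genes was -0.53, against -0.07 over all genes tested. Without DDC injury replicate 1 these medians were -0.21 and 0.03. Over the alternative settings the median of the set ranged from -0.56 to -0.19, and that of all genes from -0.10 to 0.07. Among the 42 genes with a value on all 6 arrays, the groups did not overlap in 25, of which DDC injury was lower in 20. Over all genes with 6 values the groups did not overlap in 63.0%, with DDC injury lower in 31.5%. These counts and medians describe the genes, and no test of them as a set was made.

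**Figure D1:**
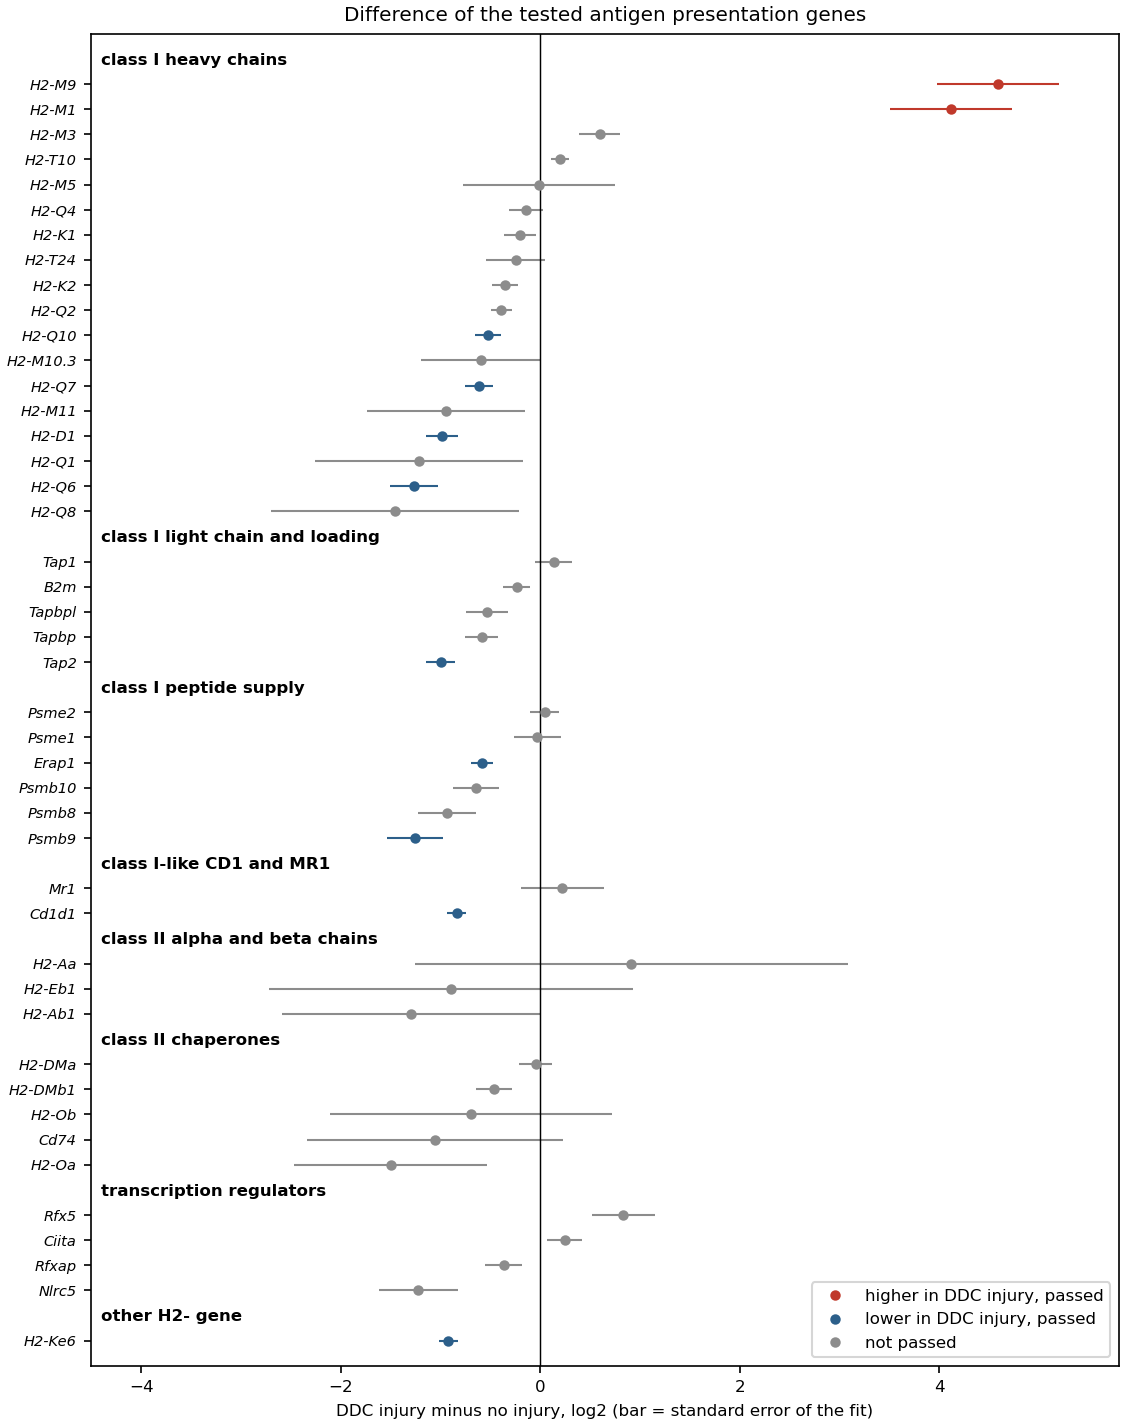
Difference of each of the 44 tested genes (DDC injury minus no injury, log2, horizontal axis), grouped by role, with bars for the standard error of the fit. H2-M9 and H2-M1 stand alone at 4.59 and 4.12, most class I pathway genes lie below 0, and the class II genes have the widest bars.

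The bright classical class I genes did not move alike. H2-D1, the heavy chain of one of the classical class I molecules, stood at 2.89, 3.30 and 3.23 on the DDC injury arrays and at 4.11, 4.15 and 4.10 on the no-injury arrays. Every DDC injury value lay below every no-injury value, and the difference was -0.99 ± 0.16 (adjusted p = 0.015 by limma), 1.98-fold lower. H2-K1, the heavy chain of the other classical molecule, stood at 4.75, 5.16 and 4.92 on the DDC injury arrays and at 5.13, 5.17 and 5.12 on the no-injury arrays. Here the groups overlapped, and the difference was -0.20 ± 0.16 (adjusted p = 0.382 by limma). Within each array the H2-D1 signal relative to H2-K1 was -1.86, -1.86 and -1.70 in DDC injury and -1.02, -1.02 and -1.02 in no injury. This ratio needs no scaling between arrays and differed by -0.78. An exact two-sided permutation test of 3 against 2 samples gave p = 0.1, the smallest it allows, for this and each of the other 4 gene ratios computed (0.1 after adjustment over the 5). A second H2-K1 probe gave 3.74, 3.68 and 3.54 on the no-injury arrays and had no accepted spot on the DDC injury arrays.

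B2m, the light chain shared by all class I molecules, stood at 4.61, 4.90 and 4.87 on the DDC injury arrays and at 5.03, 5.05 and 4.98 on the no-injury arrays. The groups did not overlap, but the difference of -0.24 ± 0.13 did not pass (adjusted p = 0.243 by limma). Both B2m and H2-K1 passed as lower under 3 of 19 alternative settings. These were the settings with quantile normalization, which sets the whole distribution of each array equal, and the authors' deposited values. There they lay as low as -0.48 for B2m and -0.43 for H2-K1.

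The 4 promoters below are shown because these class I genes share their regulatory letters while their differences were unequal. Each is 250 bases before to 50 after the annotated start, from RefSeq on build GRCm38.p6, written 5′ to 3′ on the gene's own strand. H2-K1 is at chr17:34000298-34000597 (minus strand), H2-D1 at chr17:35262844-35263143 (plus), H2-Q6 at chr17:35424600-35424899 (plus) and H2-Q7 at chr17:35438905-35439204 (plus). Capitals mark the kB site of the class I enhancer GGGATTCCC, the interferon regulatory factor type site AAGTGAAA (read here on the other strand), the interferon-stimulated response element GAAANNGAA, and the box CCAAT, each searched on both strands, with overlapping matches allowed.
H2-K1: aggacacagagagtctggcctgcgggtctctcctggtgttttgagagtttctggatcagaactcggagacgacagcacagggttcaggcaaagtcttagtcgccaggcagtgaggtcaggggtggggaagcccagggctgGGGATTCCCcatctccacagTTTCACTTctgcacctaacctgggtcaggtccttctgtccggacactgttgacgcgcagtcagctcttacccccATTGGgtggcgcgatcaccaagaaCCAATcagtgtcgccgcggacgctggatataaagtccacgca
H2-D1: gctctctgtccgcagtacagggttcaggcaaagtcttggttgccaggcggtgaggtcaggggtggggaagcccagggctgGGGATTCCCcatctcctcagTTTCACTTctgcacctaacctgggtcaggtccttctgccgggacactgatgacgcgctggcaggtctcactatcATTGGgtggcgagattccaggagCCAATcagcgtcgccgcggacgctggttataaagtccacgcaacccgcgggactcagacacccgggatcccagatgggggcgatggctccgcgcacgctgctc
H2-Q6: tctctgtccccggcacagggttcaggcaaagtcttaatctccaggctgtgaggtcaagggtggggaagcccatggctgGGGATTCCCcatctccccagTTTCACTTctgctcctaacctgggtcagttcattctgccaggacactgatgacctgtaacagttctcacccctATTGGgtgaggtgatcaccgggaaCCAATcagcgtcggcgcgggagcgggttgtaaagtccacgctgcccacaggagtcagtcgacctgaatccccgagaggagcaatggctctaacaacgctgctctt
H2-Q7: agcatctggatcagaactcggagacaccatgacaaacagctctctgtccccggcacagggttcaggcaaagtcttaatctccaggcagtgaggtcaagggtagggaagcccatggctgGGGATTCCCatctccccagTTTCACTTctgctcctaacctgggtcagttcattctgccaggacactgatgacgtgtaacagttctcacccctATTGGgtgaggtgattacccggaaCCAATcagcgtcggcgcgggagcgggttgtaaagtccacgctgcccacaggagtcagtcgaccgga

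Aligned over 240 columns, the H2-K1 and H2-D1 windows were 87.9% identical, and over 261 columns those of H2-Q6 and H2-Q7 were 97.3% identical. All 4 hold 1 copy of GGGATTCCC, which 116 of 32851 promoter windows (0.353%) contain, and no other window among the 39 genes of this set in the promoter table holds it. All 4 also hold 1 AAGTGAAA, found in 1.60% of all windows and in 9 of the 39 genes, and 2 CCAAT boxes. At least 1 CCAAT is found in 37.4% of all windows and in 30 of the 39 genes. The letters are those of the C57BL/6J reference. H-2 alleles differ strongly between strains, and with no strain in the labels a probe's fit to the alleles of these cells was not tested.

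The Qa-2 genes H2-Q6 and H2-Q7, which encode non-classical class I heavy chains, both were lower. H2-Q6 stood at 0.62, 1.22 and 1.25 on the DDC injury arrays and at 2.33, 2.29 and 2.25 on the no-injury arrays, a difference of -1.26 ± 0.24 (adjusted p = 0.022 by limma). H2-Q7 stood at 3.15, 3.49 and 3.33 on the DDC injury arrays and at 3.97, 3.89 and 4.01 on the no-injury arrays, a difference of -0.62 ± 0.14 (adjusted p = 0.035 by limma). The groups did not overlap for either gene. Without DDC injury replicate 3 neither passed, at -1.37 for H2-Q6 (adjusted p = 0.051) and -0.62 for H2-Q7 (adjusted p = 0.097) in the limma fit. H2-Q10, which encodes a secreted class I molecule made by hepatocytes, stood at -1.25, -1.11 and -0.97 on the DDC injury arrays and at -0.56, -0.54 and -0.71 on the no-injury arrays. Its groups did not overlap, and its difference of -0.53 ± 0.13 passed narrowly (adjusted p = 0.041 by limma). That call held under 8 of 19 alternatives and was lost without DDC injury replicate 1, 2 or 3 or no-injury replicate 1 (differences -0.60 to -0.45). Among genes of hepatocytes, Alb, serum albumin, was lower (-6.14 ± 0.65, adjusted p = 0.0058 by limma), while the transcription factor gene Hnf4a differed by -0.09 ± 0.20 and did not pass (adjusted p = 0.747 by limma). The part of cell state in the H2-Q10 value was not tested.

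Other genes of the class I heavy chain family did not pass. H2-Q2 stood at 3.59, 3.57 and 3.44 on the DDC injury arrays and at 3.98, 3.88 and 3.95 on the no-injury arrays, -0.39 ± 0.11 (adjusted p = 0.053 by limma), and its groups did not overlap. H2-K2, annotated as a non-coding transcript, differed by -0.35 ± 0.13. H2-M3, which presents formylated peptides, differed by 0.60 ± 0.20, and H2-T10 by 0.20 ± 0.09. Without DDC injury replicate 2, H2-Q2 (-0.41, adjusted p = 0.046), H2-K2 (-0.43, adjusted p = 0.024) and H2-M3 (0.77, adjusted p = 0.0080) passed in the limma fit. H2-Q4, fitted without DDC injury replicate 1 whose spot was rejected, differed by -0.14 ± 0.17. The remaining 6, H2-M5, H2-M10.3, H2-M11, H2-Q1, H2-Q8 and H2-T24, were dim, with standard errors of 0.30 to 1.24. H2-T23, the Qa-1 molecule seen by natural killer cell receptors, had values of 3.08, 3.16 and 2.98 on the no-injury arrays, but all of its DDC injury spots were marked as non-uniform and it was not tested. With such spots kept, a choice made after seeing the data, it stood at 2.62, 2.21 and 2.31 on the DDC injury arrays and differed by -0.71 ± 0.16 (adjusted p = 0.035 by limma). A further 5 genes could not be tested for lack of signal: H2-M10.1, H2-M10.2, H2-M10.6 and H2-T3 were well above background on no array and H2-M10.4 on 1. The class I genes are near-identical copies in places, so a probe named for one can bind transcripts of another, and the probes' sequences were not used here to check this.

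H2-M1 and H2-M9, class I genes of the M region, moved the other way and by far more. H2-M1 stood at -2.21, -3.75 and -2.10 on the DDC injury arrays and at -7.25, -6.47 and -7.02 on the no-injury arrays. H2-M9 stood at -3.09, -4.81 and -3.13 on the DDC injury arrays and at -8.59, -8.31 and -7.88 on the no-injury arrays. On both probes DDC injury replicate 2 was the lowest of its group, and it still lay over 2 log2 units above every no-injury array. H2-M1 differed by 4.12 ± 0.61 (adjusted p = 0.012 by limma), 17.4-fold, with signal well above background on all 6 arrays. H2-M9 differed by 4.59 ± 0.61 (adjusted p = 0.0096 by limma) and was well above background on all 3 DDC injury arrays and 1 of 3 no-injury arrays. Against a no-injury bound of -7.63, its mean of -3.68 in DDC injury was at least 15.5-fold higher with the background correction used here. A second H2-M9 probe stood at -4.04, -5.98 and -4.31 on the DDC injury arrays and was well above background on no no-injury array. Its mean of -4.78 in DDC injury was at least 7.36-fold higher than its bound of -7.66 with the same correction. Each bound takes, per no-injury array, the higher of the probe's own signal and the lowest signal accepted as above background. It holds for that background correction only. H2-M9 differed by 1.92 with normexp background and the 75th percentile, and by 2.54 with the authors' deposited values. Both genes are dim next to the array's 75th percentile, and the size of their differences depends on the background correction: over the alternatives H2-M1 ranged from 2.28 to 4.65 and H2-M9 from 1.80 to 5.16.

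H2-M9 and H2-M1 are next to each other among the tested genes of the H-2 region, and their start regions are shown because they are alike. The H2-M1 window is chr17:36672148-36672447 and the H2-M9 window chr17:36642614-36642913, both on the minus strand of GRCm38.p6, with the same motifs in capitals.
H2-M1: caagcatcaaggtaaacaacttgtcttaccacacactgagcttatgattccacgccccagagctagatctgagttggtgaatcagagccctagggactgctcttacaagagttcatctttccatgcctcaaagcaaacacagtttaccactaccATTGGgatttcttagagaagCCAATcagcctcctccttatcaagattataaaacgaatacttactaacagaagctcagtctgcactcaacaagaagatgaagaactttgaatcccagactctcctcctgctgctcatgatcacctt
H2-M9: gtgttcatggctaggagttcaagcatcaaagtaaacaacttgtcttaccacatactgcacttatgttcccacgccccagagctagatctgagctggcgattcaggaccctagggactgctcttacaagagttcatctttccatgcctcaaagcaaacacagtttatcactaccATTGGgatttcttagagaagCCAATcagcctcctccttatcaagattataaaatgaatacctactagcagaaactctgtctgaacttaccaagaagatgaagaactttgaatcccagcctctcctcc

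Over 281 aligned columns the windows were 92.5% identical, each with 2 CCAAT boxes and none of the other 3 motifs. Transcripts of such similar genes may bind each other's probes, so how much of the signal belongs to each gene was not tested. The genes on either side did not pass: H2-M11 differed by -0.94 ± 0.79 (adjusted p = 0.423 by limma), with a range of -1.48 to -0.32 over the fits that leave out 1 replicate, and Trim26 by 0.17 ± 0.11 (adjusted p = 0.291 by limma).

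**Figure D2:**
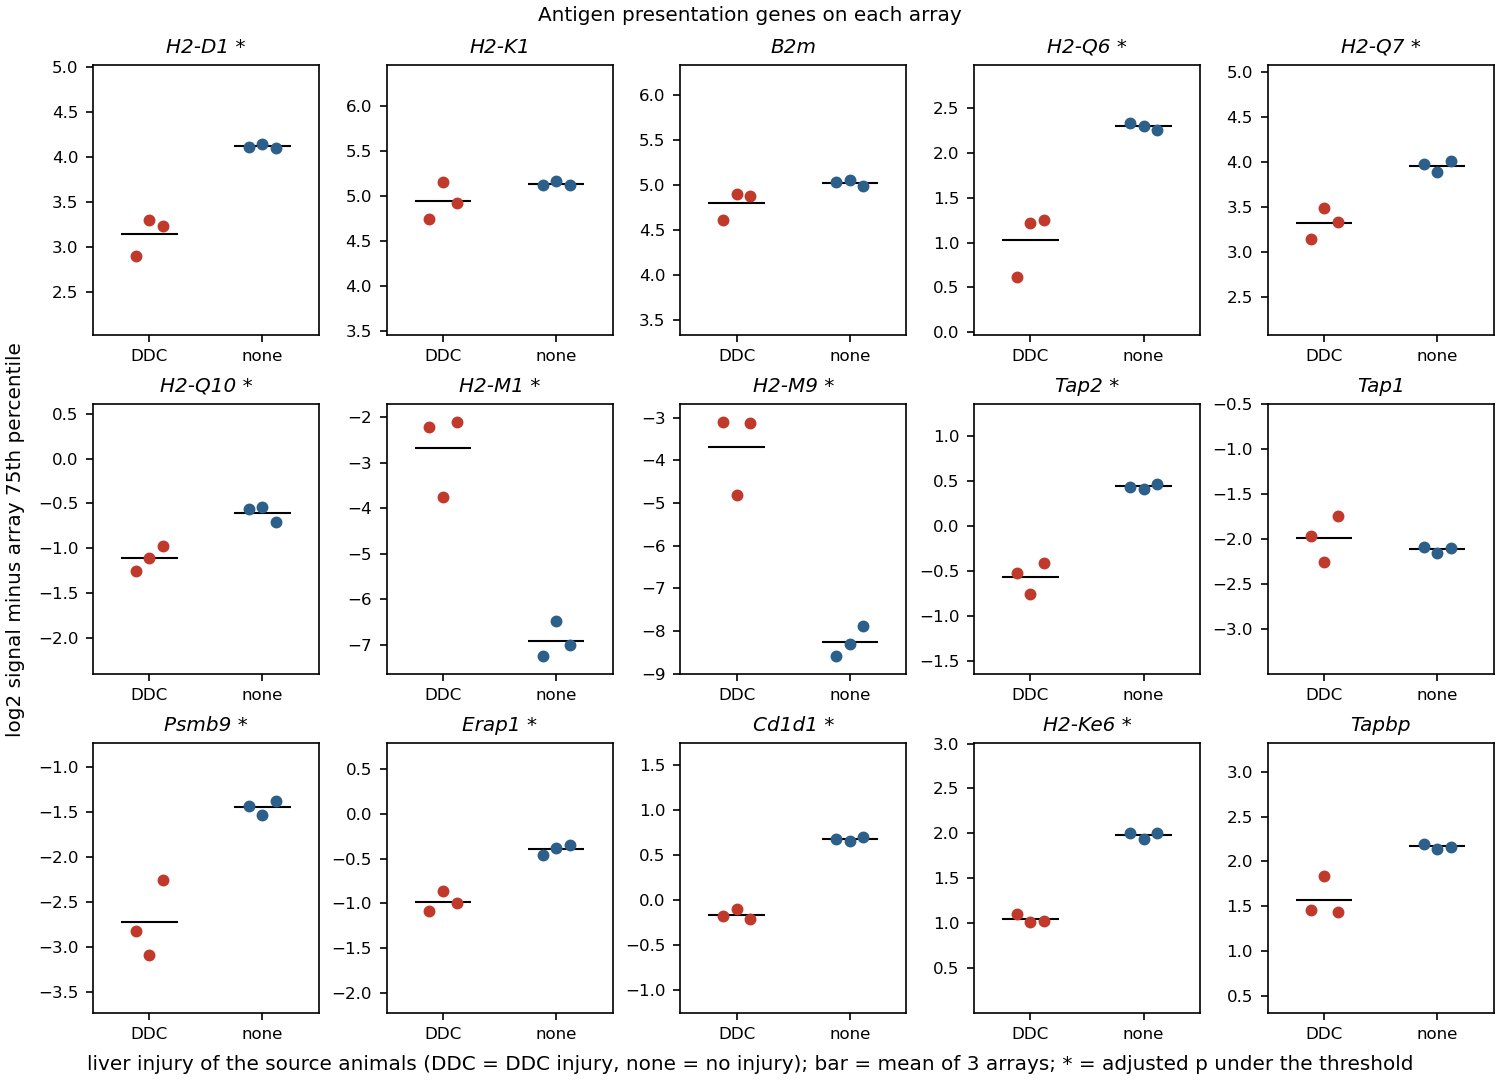
Level of 15 genes on each array (log2 signal minus the array's 75th percentile, vertical axis) for DDC injury (left) and no injury (right), with bars for the mean of 3 arrays and stars for genes that passed. H2-D1, H2-Q6 and Tap2 have no overlap between groups while H2-K1 and Tap1 overlap, and H2-M1 and H2-M9 are the panels with DDC injury above no injury that passed.

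The subunits of the TAP transporter did not move together. Tap2 stood at -0.52, -0.76 and -0.41 on the DDC injury arrays and at 0.44, 0.42 and 0.47 on the no-injury arrays, without overlap. Its difference was -0.999 ± 0.14 (adjusted p = 0.011 by limma). Tap1 stood at -1.97, -2.26 and -1.74 on the DDC injury arrays and at -2.09, -2.15 and -2.10 on the no-injury arrays, so that the groups overlapped. It differed by 0.13 ± 0.18 (adjusted p = 0.619 by limma), on a probe with 10 spots per array. The Tap2 signal relative to Tap1 was 1.45, 1.498 and 1.33 in DDC injury and 2.53, 2.57 and 2.58 in no injury, a difference of -1.13. Tapbp, tapasin, stood at 1.46, 1.83 and 1.43 on the DDC injury arrays and at 2.20, 2.14 and 2.16 on the no-injury arrays. Its groups did not overlap, and -0.59 ± 0.17 did not pass (adjusted p = 0.058 by limma). Tapbpl, the tapasin-related peptide editor, differed by -0.53 ± 0.21 (adjusted p = 0.125 by limma). Tapbp passed as lower under 6 of 19 alternatives and Tapbpl under 2, for both including the limma fit without DDC injury replicate 2 (-0.72 and adjusted p = 0.0082 for Tapbp, -0.35 and adjusted p = 0.031 for Tapbpl).

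Among 10 tested partners of class I assembly outside this set, 2 (20%) were higher and none lower by limma. Over all genes tested 17.7% were higher and 15.8% lower. The higher partners were Lnpep, an endosomal peptide trimming enzyme, by 0.99 ± 0.12 (adjusted p = 0.0083 by limma) and Sec61g, a subunit of the translocation channel, by 1.33 ± 0.11 (adjusted p = 0.0036 by limma). The chaperones Calr (0.16 ± 0.17), Canx (0.33 ± 0.14) and Pdia3 (0.14 ± 0.10) did not pass.

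The 3 immunoproteasome subunits lay lower in DDC injury on every array, and 1 of them passed. Psmb9 stood at -2.83, -3.09 and -2.26 on the DDC injury arrays and at -1.43, -1.53 and -1.37 on the no-injury arrays. It differed by -1.26 ± 0.28 (adjusted p = 0.033 by limma), and without DDC injury replicate 1 by -1.20 (adjusted p = 0.058). The call was also lost with scan as a random block (-1.26, adjusted p = 0.054 by limma) and with no filter on dim probes (-1.26, adjusted p = 0.051 by limma). Psmb8 stood at -3.29, -2.66 and -2.61 on the DDC injury arrays and at -1.51, -2.16 and -1.86 on the no-injury arrays, -0.93 ± 0.29 (adjusted p = 0.075 by limma). Psmb10 stood at 0.02, 0.66 and 0.11 on the DDC injury arrays and at 0.90, 0.90 and 0.92 on the no-injury arrays, -0.64 ± 0.23 (adjusted p = 0.103 by limma). The groups did not overlap for any of the 3, and without DDC injury replicate 2 Psmb10 passed at -0.84 (adjusted p = 0.0076 by limma). These subunits take the places of the standard catalytic subunits Psmb6, Psmb5 and Psmb7, which were all higher. Psmb5 differed by 0.88 ± 0.09 (adjusted p = 0.0054 by limma), Psmb6 by 0.62 ± 0.10 (adjusted p = 0.014 by limma) and Psmb7 by 0.57 ± 0.10 (adjusted p = 0.018 by limma).

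Relative to its standard counterpart on the same array, each immunoproteasome subunit was lower in DDC injury. The Psmb9 to Psmb6 difference was -7.29, -7.47 and -6.64 in DDC injury and -5.25, -5.27 and -5.22 in no injury, 3.68-fold lower. The Psmb8 to Psmb5 difference was -7.16, -6.57 and -6.46 in DDC injury and -4.52, -5.15 and -4.87 in no injury, 3.51-fold lower. The Psmb10 to Psmb7 difference was -2.45, -1.89 and -2.28 in DDC injury and -0.98, -0.998 and -0.99 in no injury, 2.32-fold lower. No array of one group overlapped with the other in any of these ratios, each with the exact permutation p of 0.1 given above. Of the 9 standard proteasome genes tested, 5 (55.6%) were higher and none lower by limma, against 17.7% and 15.8% over all genes tested. Psma1 and the nuclear activator Psme3 were among the 5. The interferon-inducible activator subunits Psme1 (-0.03 ± 0.23) and Psme2 (0.05 ± 0.15, fitted without DDC injury replicate 3) did not pass. A dimmer Psme2 probe stood at 1.21, 1.40 and 1.17 on the DDC injury arrays and at 0.79, 0.80 and 0.84 on the no-injury arrays, 0.46 ± 0.12, and passed (adjusted p = 0.044 by limma over probes).

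**Figure D3:**
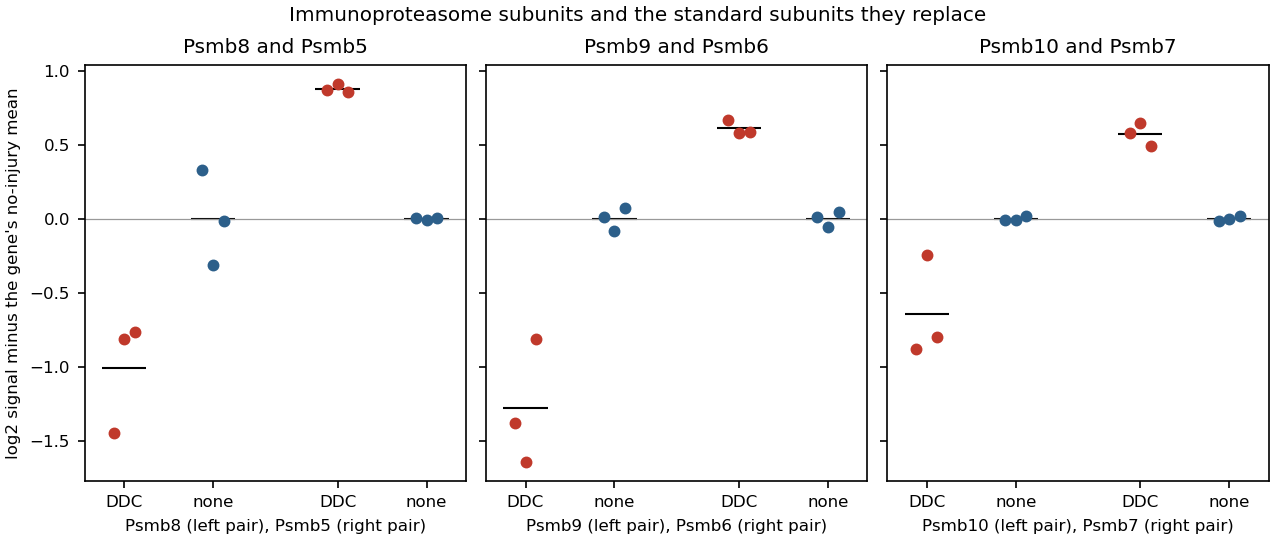
Signal of each immunoproteasome subunit (left pair) and its standard counterpart (right pair) relative to that gene's no-injury mean, in log2, with DDC injury left of no injury in each pair and bars for the mean of 3 arrays. All DDC injury points of Psmb8, Psmb9 and Psmb10 lie below 0 and all those of Psmb5, Psmb6 and Psmb7 above it.

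Psmb9 and Tap1 start next to each other on opposite strands, and 275 of the 300 bases of their promoter windows are shared. The window of Psmb9, at chr17:34187281-34187580 (minus strand, GRCm38.p6), is shown because both genes start from it while Psmb9 differed by -1.26 and Tap1 by 0.13. Of the 4 motifs it holds only 1 CCAAT, on the other strand.
Psmb9: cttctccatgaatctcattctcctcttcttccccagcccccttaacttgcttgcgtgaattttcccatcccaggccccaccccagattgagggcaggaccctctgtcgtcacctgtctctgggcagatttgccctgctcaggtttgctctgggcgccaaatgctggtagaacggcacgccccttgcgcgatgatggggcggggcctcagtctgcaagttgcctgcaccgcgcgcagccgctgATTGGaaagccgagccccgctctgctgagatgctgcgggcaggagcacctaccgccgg

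Erap1 stood at -1.08, -0.86 and -0.998 on the DDC injury arrays and at -0.46, -0.39 and -0.35 on the no-injury arrays, with no overlap. It differed by -0.58 ± 0.11 (adjusted p = 0.024 by limma), and without DDC injury replicate 3 by -0.57 (adjusted p = 0.075). Its promoter and that of B2m, which did not pass, are set side by side because they are 2 of the 4 genes of the set with a match to GAAANNGAA, beside H2-T23 and Psme1. That motif is in 8.56% of all windows. Erap1 is at chr13:74639603-74639902 and B2m at chr2:122147437-122147736, both on the plus strand of GRCm38.p6.
Erap1: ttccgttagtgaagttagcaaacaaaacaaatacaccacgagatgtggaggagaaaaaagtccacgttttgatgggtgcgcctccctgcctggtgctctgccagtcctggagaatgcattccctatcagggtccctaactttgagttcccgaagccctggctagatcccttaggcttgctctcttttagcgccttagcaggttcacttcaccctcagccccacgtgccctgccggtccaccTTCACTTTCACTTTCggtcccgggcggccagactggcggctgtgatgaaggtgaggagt
B2m: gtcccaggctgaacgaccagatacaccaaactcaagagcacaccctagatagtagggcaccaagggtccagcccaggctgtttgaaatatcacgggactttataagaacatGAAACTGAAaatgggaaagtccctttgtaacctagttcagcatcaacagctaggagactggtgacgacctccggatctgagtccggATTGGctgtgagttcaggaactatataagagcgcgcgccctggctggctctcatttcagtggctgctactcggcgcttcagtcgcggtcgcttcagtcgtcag

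Of the class I-like molecules, Cd1d1, which presents lipids to natural killer T cells, stood at -0.18, -0.10 and -0.21 on the DDC injury arrays and at 0.68, 0.66 and 0.70 on the no-injury arrays. The groups were far apart relative to their spread, and the difference was -0.83 ± 0.10 (adjusted p = 0.0068 by limma). A second Cd1d1 probe differed by -0.77 ± 0.13. Mr1, which presents vitamin B metabolites, stood at -4.25, -5.44 and -4.43 on the DDC injury arrays and at -4.97, -5.05 and -4.64 on the no-injury arrays. Its groups overlapped, at 0.22 ± 0.41 (adjusted p = 0.713 by limma). H2-Ke6 carries an H2- name from its place in the region but encodes the steroid and fatty acid enzyme Hsd17b8. It stood at 1.11, 1.01 and 1.02 on the DDC injury arrays and at 2.00, 1.93 and 2.00 on the no-injury arrays, -0.92 ± 0.10 (adjusted p = 0.0056 by limma).

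No class II gene passed by limma, and for 5 of the 8 tested DDC injury replicate 1 lay at least 2 log2 units below every other array. H2-Ab1, the class II beta chain of I-A, stood at -6.13, -2.53 and -2.49 on the DDC injury arrays and at -2.82, -2.35 and -2.18 on the no-injury arrays. Cd74, the invariant chain, stood at -3.79, -1.64 and 0.33 on the DDC injury arrays and at -0.70, -0.90 and -0.09 on the no-injury arrays. DDC injury replicate 1 was the lowest array for both, and the other DDC injury arrays lay among or near the no-injury arrays. H2-Ab1 differed by -1.29 ± 1.30 (adjusted p = 0.499 by limma) and Cd74 by -1.06 ± 1.29 (adjusted p = 0.576 by limma). Without DDC injury replicate 1 they differed by -0.09 and -0.01. H2-Eb1, the beta chain of I-E, stood at -8.36, -3.44 and -3.32 on the DDC injury arrays and at -3.87, -4.80 and -3.14 on the no-injury arrays. Its difference was -0.89 ± 1.83 with that array and 0.77 without it, and that of H2-Ob -0.69 ± 1.42 with it and 0.62 without it, neither passing. H2-Aa, the I-A alpha chain, was at background on DDC injury replicate 1 (-9.39) and on no-injury replicate 2 (-9.62), and its difference of 0.92 ± 2.17 did not pass. Without DDC injury replicate 1 it was 2.41 and without no-injury replicate 2 it was -1.39. H2-Oa, a modulator of peptide exchange, differed by -1.50 ± 0.96, by -0.61 without DDC injury replicate 1, and by -0.014 with normexp background and the 75th percentile. The peptide exchange subunits H2-DMa and H2-DMb1 differed by -0.04 ± 0.17 and -0.47 ± 0.18, and for them DDC injury replicate 1 was within 1 log2 unit of the other arrays. H2-Eb2 and H2-DMb2 were well above background on no array.

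DDC injury replicate 1 lay at least 2 log2 units below each of the other 5 arrays for 6 of the 42 genes with 6 values, namely H2-Ab1, H2-Eb1, Cd74, H2-Oa, H2-Ob and the class I gene H2-Q1. Over all genes with 6 values this held for 604 of 15430 (3.91%). No other array was scanned on the day of that one. The same drop was seen in 2 of 14 leukocyte and antigen presenting cell markers, 2 of 5 endothelial and 2 of 3 stellate and fibroblast markers, in Ctss, the protease that degrades the invariant chain, and in Irf8. It was also seen in 6 of 11 lung epithelial genes and 6 of 6 red cell genes, both of these lists chosen after values were seen. Sftpc, a surfactant protein of the lung, stood at -9.53, -0.08 and 0.16 on the DDC injury arrays and at -0.17, 1.22 and 0.35 on the no-injury arrays.

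The summed linear level of 10 class II genes, relative to the 75th percentile, was 0.169, 0.714 and 1.70 on the DDC injury arrays and 0.956, 0.878 and 1.47 on the no-injury arrays. The summed level of 17 leukocyte markers was 3.002 to 6.54 on the DDC injury arrays and 7.72 to 8.07 on the no-injury arrays. Most of it came from Cd14, a co-receptor for bacterial lipopolysaccharide, which stood at 1.44, 2.54 and 1.34 on the DDC injury arrays and at 2.54, 2.54 and 2.60 on the no-injury arrays and did not pass (-0.78 ± 0.42, adjusted p = 0.226 by limma). Of the 14 leukocyte markers tested, 1 (7.14%) passed as lower, against 15.8% of all genes tested: Itgam, the integrin chain of myeloid cells. It stood at -2.68, -1.87 and -2.23 on the DDC injury arrays and at 0.31, 0.67 and 0.26 on the no-injury arrays, a difference of -2.73 ± 0.29 (adjusted p = 0.0058 by limma) with no overlap. The summed level of 6 red cell genes was 0.0978 to 1.84 on the DDC injury arrays and 2.34 to 4.19 on the no-injury arrays. For the 11 lung genes it was 8.18 to 10.9 on the DDC injury arrays and 6.36 to 8.07 on the no-injury arrays. On the DDC injury arrays most of it came from Lamp3, also a dendritic cell gene, which was higher by 1.18 ± 0.14 (adjusted p = 0.0080 by limma). Clec4f and Xcr1 were well above background on no array, while Ptprc and Csf1r were so on all 6. Ptprc differed by 0.36 ± 0.90 and Csf1r by -1.54 ± 0.52, neither passing. The part of RNA from other cells or tissues in the class II values was not tested, and fewer cells of a type and less RNA per cell cannot be told apart in bulk samples.

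**Figure D4:**
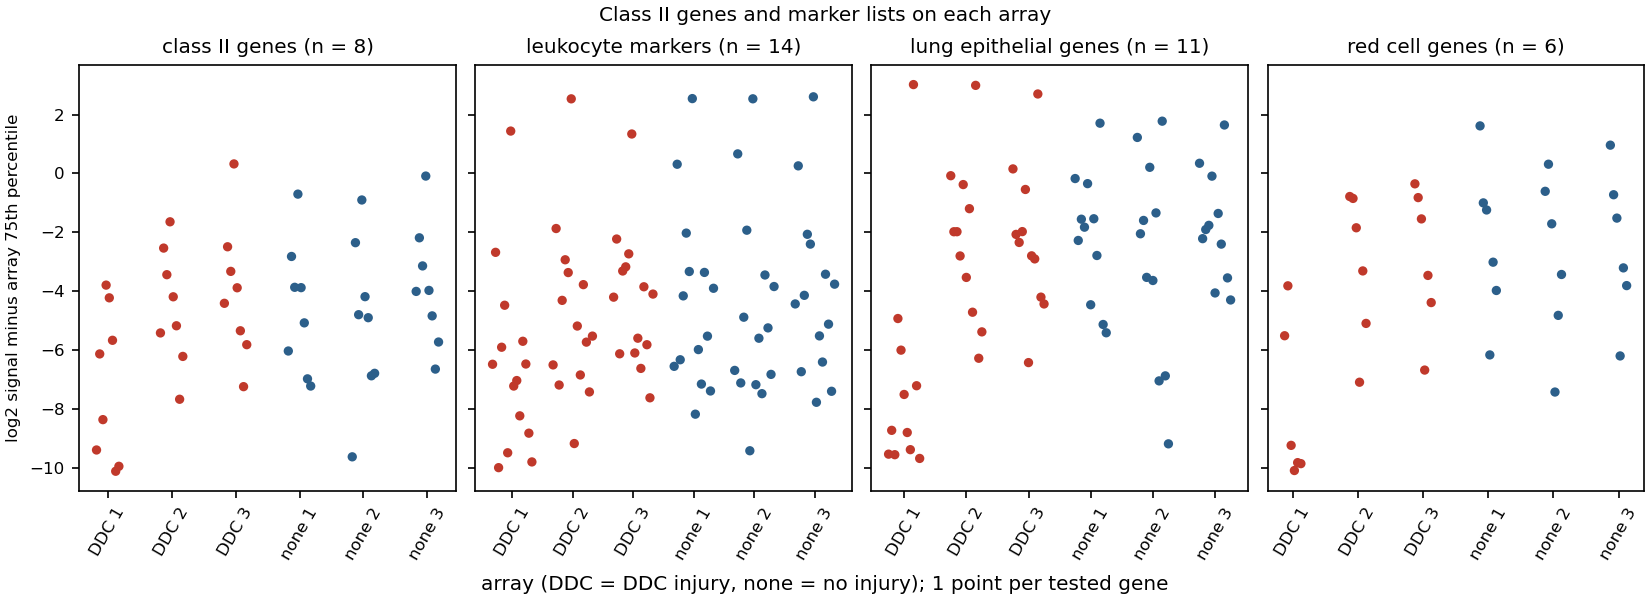
Level of each tested gene on each array (log2 signal minus the array's 75th percentile) for 8 class II genes, 14 leukocyte markers, 11 lung epithelial genes and 6 red cell genes, DDC injury arrays left of no-injury arrays. On DDC injury replicate 1 several points of each panel drop to the background near -9 or -10, where the other DDC injury arrays have few or none.

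None of the 4 regulators of MHC transcription passed by limma. Nlrc5, the class I transactivator, stood at -5.94, -5.84 and -4.82 on the DDC injury arrays and at -4.41, -4.25 and -4.34 on the no-injury arrays. The groups did not overlap on this probe, which differed by -1.22 ± 0.40 (adjusted p = 0.081 by limma), but its second probe differed by -0.14 ± 0.67. Without DDC injury replicate 3 the brighter probe differed by -1.58 and passed (adjusted p = 0.016). Ciita, the class II transactivator, stood at -5.70, -5.34 and -5.64 on the DDC injury arrays and at -5.90, -5.95 and -5.42 on the no-injury arrays, with overlap and a difference of 0.25 ± 0.17 (adjusted p = 0.344 by limma). Of the subunits of the RFX complex that binds class II promoters, Rfx5 differed by 0.83 ± 0.32 (adjusted p = 0.116) and Rfxap by -0.37 ± 0.19 (adjusted p = 0.209), and their partner Rfxank by -0.24 ± 0.16, none passing by limma. Without DDC injury replicate 2 Rfx5 (1.101, adjusted p = 0.017) and Rfxap (-0.52, adjusted p = 0.014) passed in the limma fit.

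Of 11 tested transcription partners upstream of these genes, 2 were higher and 2 lower by limma. That is 18.2% each, near the 17.7% and 15.8% over all genes tested. Irf2, which occupies interferon response sites, was lower by -0.74 ± 0.11 (adjusted p = 0.011 by limma), while Irf1 differed by -0.21 ± 0.29 and did not pass. Creb1 (1.34 ± 0.14) and Nfyb (0.55 ± 0.13), which bind class II promoters with RFX, were higher. Among 7 genes of interferon-gamma reception and its brakes, 3 (42.9%) were higher and none lower by limma, against 17.7% and 15.8% over all genes tested. The 3 were Socs1 (2.04 ± 0.23) and Ptpn2 (0.58 ± 0.10), which restrain the signal, and Jak2 (0.89 ± 0.23), which transmits it. The receptor chains Ifngr1 (0.32 ± 0.12) and Ifngr2 (0.14 ± 0.18) did not pass.

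Other genes that interferon-gamma induces did not move as one. Of 15 tested, 1 was higher and 1 lower (6.67% each), against 17.7% and 15.8% over all genes tested. Their median difference was -0.51, against -0.53 over the 44 genes of the set and -0.07 over all genes tested. Cxcl10, a chemokine for T cells, stood at 0.27, 1.09 and 0.33 on the DDC injury arrays and at -1.23, -1.32 and -1.23 on the no-injury arrays, 1.84 ± 0.30 (adjusted p = 0.015 by limma). The guanylate binding protein Gbp6 stood at -3.10, -2.04 and -3.09 on the DDC injury arrays and at -1.20, -0.97 and -1.18 on the no-injury arrays, -1.66 ± 0.39 (adjusted p = 0.039 by limma). The groups did not overlap for either gene. DDC injury replicate 2 was the highest array of its group for both. Genes of the set went both ways on that array. It was the highest of its group for H2-K1, H2-D1, B2m and Psmb10, among others, and the lowest for Psmb9, Tap1, Tap2, Tapbpl and H2-M3, among others. Among 8 costimulators and natural killer cell ligands, Ulbp1 (1.91 ± 0.17) and Raet1e (0.85 ± 0.19), stress ligands of the NKG2D receptor, were higher and Cd80 (-1.10 ± 0.23), a ligand of CD28, was lower. That is 25% higher and 12.5% lower, against 17.7% and 15.8% over all genes tested. Of 7 class II processing genes, Lgmn, a lysosomal protease, was lower (-0.76 ± 0.12) and 6 did not pass. That is 14.3% lower, near the 15.8% of all genes tested.

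Along the H-2 region, taken in gene order from Tapbp to H2-M3 in the RefSeq table of GRCm38.p6, 132 protein-coding genes were tested. Of 28 belonging to the set, 2 were higher (7.14%) and 7 lower (25%). Of the other 104 genes 17 were higher (16.3%) and 15 lower (14.4%). Over all genes tested 17.7% were higher and 15.8% lower, so the 104 lay near that background. The median difference was -0.59 for the 28 and 0.05 for the 104. Genes that passed in opposite directions lay side by side, as with H2-Ke6 (-0.92 ± 0.10) and its neighbour Slc39a7, a zinc transporter (0.88 ± 0.12, adjusted p = 0.0098 by limma).

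**Figure D5:**
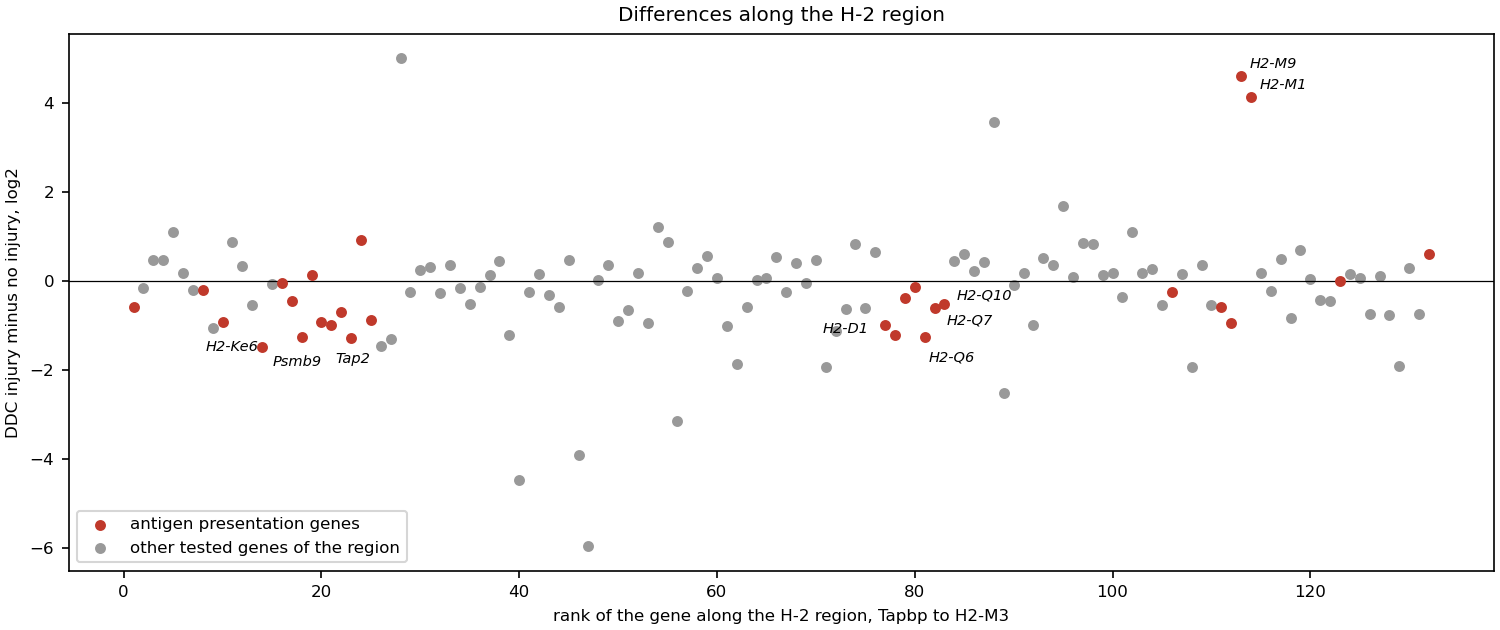
Difference of each tested gene (DDC injury minus no injury, log2) by its rank along the H-2 region, with genes of the antigen presentation set in red, other genes in grey and genes of the set that passed named. The class II and Tap end and the D and Q genes lie mostly between -1.5 and 0, and H2-M9 and H2-M1 stand together above 4.

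The calls rested on few independent samples. With no-injury replicate 2 left out, which leaves 1 no-injury sample, the differences of the 11 called genes ranged from -1.32 to 4.55, each kept its direction and none passed. In that fit the median difference over the 44 genes was -0.46, against -0.07 over all genes tested.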

How the data were processed

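The genes and lists were chosen with earlier results of these data known. Per the file headers, Feature Extraction quantified each array, and the columns used are intensity values: the processed signal, background-subtracted and detrended, and for one alternative the median raw signal and local background. The authors also deposited a table of normalized log2 values, whose column medians are 6.92 to 6.93. The submitters' processing notes name limma. The spot flags (other) were used as deposited by the authors.

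Spots marked non-uniform or population outliers were left out, repeated spots averaged, and each processed signal was put on a log2 scale after division by its array's 75th percentile. Probes were named by transcript accession in a RefSeq table of GRCm38.p6. The arrays are annotated on mm9, so no probe coordinates are given. A gene was represented by its brightest probe and tested if this probe passed the background flag on 3 or more of 6 arrays with at least 2 values per group. The plan was for 6 samples. Averaging no-injury replicates 1 and 3 left 3 against 2. The series is described as 6 cell lines, and whether no-injury replicates 1 and 3 are separate lines was not tested. The p-values measure the spread between the samples as counted here. limma 3.58.1 in R 4.3.3 (lmFit, eBayes, two-sided, prior degrees of freedom 1.35) was used, and was tested on simulated data. There, with 200 of 15430 genes shifted, it recovered 28.6% of 2-fold and 71.6% of 8-fold differences. In the data 33.4% of genes passed, which changes the adjusted cut-off, so these rates need not carry over. A gene that did not pass may still differ. The number of arrays limits the precision.

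Values by array are given for every gene past the threshold and for a fixed set of pathway genes, with other genes by range and count and up to 4 genes of each companion list. A gene that this rule takes is not reported here. Folds are powers of 2 of the difference. Alternatives covered the background correction, the normalization, the filter on dim probes, the choice of probe, left-out replicates, scan and replicate blocks, and kept spots. Promoter windows were aligned with Biopython (match 1, mismatch -1, gap opening -3, gap extension -1, free ends).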

Additional observations from a re-analysis of the deposited data

How the results depend on the processing

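Each result was recomputed under 19 alternatives, 1 of them, with marked spots kept, chosen after seeing the data. Every one of the 11 called genes kept its direction under each alternative that gave it a value. The count of genes of the set that were lower was 14 with quantile normalization, 17 with normexp background and quantile normalization, 17 with the authors' deposited values and 16 with all 6 arrays counted separately. The 9 genes called lower were all among them in these 4 fits. Over all genes tested, 16.3%, 18.5%, 17.4% and 23.2% were lower in the 4 fits, in that order. The count of the set was 6 with no filter on dim probes, where H2-Q10, H2-Q7 and Psmb9 lost their call. It was 7 with scan as a random block and 7 with scan day as a covariate, where H2-Q10 and Psmb9 did. Over all genes tested, 9.01%, 12.9% and 17.9% were lower in these 3 fits, in that order. The count higher was 4 with normexp background and the 75th percentile, 1 with signal well above background required on all 6 arrays, and 4 with all 6 arrays counted separately. Over all genes tested, 17.5%, 22% and 24.6% were higher there, in that order. With 1 sample made from the 3 no-injury arrays, limma called 0 higher and 0 lower genes of the set (2 and 6 at an unadjusted p under 0.05), and 340 and 204 genes of the whole array. There the lone no-injury sample is assumed to vary like the DDC injury group. Leaving out 1 replicate at a time gave 0 to 4 higher and 0 to 14 lower genes of the set, and 344 to 3781 higher and 197 to 3176 lower genes of the whole array. The lowest counts came without no-injury replicate 2, and those without DDC injury replicate 3 were 1719 and 1508.

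Replicate numbers are shared between the groups, but same-numbered samples correlated at 0.12, 0.02 and 0.12 in their deviations from the group means, so the numbers were not taken to pair them. With the replicate block and all 6 arrays counted separately, 2 genes of the set were higher and 8 lower. Over all genes tested, 18.2% were higher and 17.4% lower in that fit.

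Changes of sign were confined to genes that did not pass. With normexp background and the 75th percentile, H2-M10.3 (0.18), H2-M5 (0.21), H2-Q1 (0.0037), H2-Q4 (0.079), H2-T24 (0.095), Psme2 (-0.058), H2-DMa (0.11) and H2-Ob (0.10) changed sign, where the median of all genes also moved to 0.07, against -0.07. With normexp background and quantile normalization they were H2-M10.3 (0.0020), H2-M5 (0.17), H2-Q4 (0.0085), H2-T24 (0.012), Psme2 (-0.20) and H2-DMa (0.18). With quantile normalization alone they were H2-DMa (0.20), Psme2 (-0.12) and H2-M5 (0.30). With the authors' deposited values they were H2-T24 (0.017), Psme2 (-0.20), H2-DMa (0.22), H2-M5 (0.25), H2-M10.3 (0.0058) and H2-Q4 (0.013). H2-M5 was at 0.12 with all 6 arrays separate, with the replicate block and with 1 no-injury sample, and Psme2 at -0.071 with marked spots kept. With scan day as a covariate, which removes DDC injury replicate 1, H2-Ob (0.62), H2-DMa (0.019), H2-Eb1 (0.77), Mr1 (-0.0055), Psme2 (-0.076), Psme1 (0.092) and H2-M5 (0.65) changed sign. The causes were not tested.

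Over the fits that leave out 1 replicate, genes that changed sign ranged from -0.36 to 0.65 (H2-M5), -1.45 to 0.62 (H2-Ob), -0.17 to 0.019 (H2-DMa), -1.75 to 0.77 (H2-Eb1), -0.0055 to 0.59 (Mr1), -0.076 to 0.17 (Psme2), -0.23 to 0.092 (Psme1), -1.39 to 2.41 (H2-Aa) and -0.28 to 0.0023 (H2-Q4).

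The main limits are the 3 against 2 samples, the confounding of scan with group, the near-identical class I sequences and the strain that the labels do not give. Differences of dim genes depend on the background correction.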
